A study of Arabidopsis thaliana with 12 samples.

Results

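Leaves of the Arabidopsis thaliana mutant dcl1-9 were compared with wild-type leaves in the light over 27827 probe sets, each of which reads the transcripts of 1 gene. The members were the 6 arrays labelled as light controls, 3 WT and 3 dcl1-9, of 12 arrays in the series. The other 6 arrays hold the same genotypes kept in the dark. WT was Columbia (Col-0). The dcl1-9 allele is an insertion isolated in Wassilewskija and backcrossed 5 times to Col-0. Wassilewskija sequence left after backcrossing, linked to the insertion or elsewhere, was not measured. Well-expanded rosette leaves of 4 to 5 week old plants were detached and floated on 20 mL of water for 6 h at 100 µE of light or in darkness, and each genotype and treatment had 3 biological replicates (n = 3). A detached leaf on water is a wounded organ without nutrient supply from the root. The study describes dcl1-9 as hypomorphic, not null, so some microRNA is still made. Only this 1 allele stands for reduced DCL1 function.

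DICER-LIKE 1 (DCL1) is the plant ribonuclease that cuts hairpin precursors into microRNAs. The transcript of a MIR gene is capped and polyadenylated like an mRNA, folds into a hairpin, and is cut by DCL1 together with the double-stranded RNA-binding protein HYL1 and the zinc finger protein SERRATE. The product is methylated by HEN1 and loaded into ARGONAUTE1 (AGO1), which cuts or represses mRNAs that carry a matching site. Many of these mRNAs encode transcription factors that set leaf shape, the change from juvenile to adult leaves, and responses to auxin, phosphate, copper and sulfate. The array reads MIR transcripts before or after cutting as ordinary RNA and does not measure the mature microRNA.

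Values are hybridisation intensities in arbitrary units. A difference is the mean log2 intensity of dcl1-9 minus that of WT, less the median difference over all probe sets (-0.14), and is given with its standard error (SE). Genes were called where limma's moderated test gave a Benjamini-Hochberg adjusted p under 0.05. In the light, 2770 probe sets (9.95%) were called higher in dcl1-9 and 424 (1.52%) lower, 3194 (11.5%) in all, and 7118 had an unadjusted p under 0.05. Among the calls, 1147 of the higher and 123 of the lower probe sets differed by over 2-fold.

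The predominance of higher calls depended on the scaling. Tested against a difference of 0 without the median shift, 1647 probe sets were higher and 926 lower. Quantile normalization gave 1950 higher and 651 lower, cyclic loess (chosen after seeing the data) 2046 and 730, probe sets with a mean intensity of at least 20 alone 2176 and 770, and the study's own type of criterion 1985 and 1446. The median difference moved with brightness, from -0.10 among probe sets with a mean under 10 and -0.15 among those of 10 to 20 to 0.19 among those of 100 to 200 and 0.14 above, and the share called higher ran from 0.439% of the dimmest to 19.9% of those between 50 and 100. Of the 18141 probe sets with a mean of at least 20, 14.7% were called higher and 1.87% lower, against 1.02% higher among the 9686 dimmer ones. The number of calls also depended on single arrays, with 1394 without WT replicate 3, 1606 without dcl1-9 replicate 2, 2055 without dcl1-9 replicate 1 and 3481 without WT replicate 2. Array medians lay between 30.8 and 34.1 in WT and between 29.96 and 33.0 in dcl1-9, and replicate arrays correlated at 0.95 to 0.970 in WT and 0.965 to 0.982 in dcl1-9, against 0.913 to 0.965 between the genotypes. Leaves hold several cell types, so fewer cells of a type and less RNA per cell cannot be told apart in these values.

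The mutated gene was measured first. DCL1 (AT1G01040) read 21.4, 21.5 and 17.1 in WT and 48.3, 41.8 and 36.5 in dcl1-9, a difference of 1.22 (SE 0.18, adjusted p = 0.0014 by limma). The dcl1-9 arrays were all above the WT arrays. Where the probes lie relative to the insertion was not analysed here, so the DCL1 signal does not check the labels. MIR838, a hairpin within DCL1 whose signal therefore shares RNA with its host transcript, read 11.1, 8.04 and 9.78 in WT and 15.4, 20.7 and 13.2 in dcl1-9 (difference 0.90, SE 0.22, adjusted p = 0.019), and its call was lost without WT replicate 2 or 3 or dcl1-9 replicate 1 or 2 (adjusted p = 0.0647, 0.0545, 0.0563 and 0.0898).

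Of the 174 MIR probe sets, which read the precursors that DCL1 cuts, 40 rose in dcl1-9 and 1 fell. The median difference over all 174 was 0.23, and 118 of them had a mean intensity under 20, where few genes of any kind were called. Among the 56 brighter MIR probe sets, 26 (46.4%) rose and the median was 0.90, beside 14.7% and a median of 0.10 for all probe sets of that brightness. Among the 118 dimmer ones, 14 (11.9%) rose, beside 1.02% of all dim probe sets. The arrays of the genotypes did not overlap in 51 of the 174 MIR probe sets with a positive difference and in 18 with a negative one. The shares of all probe sets were 13.3% and 19.3%. Here and below, overlap was judged on intensities without the median shift, and these counts took the direction from the shifted difference. Leaving out each light array in turn kept 32 of the 41 calls throughout.

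MIR395e, whose microRNA targets ATP sulfurylases and a sulfate transporter, headed the MIR genes by the fitted difference. It read 5.00, 5.20 and 4.46 in WT and 86.4, 38.4 and 78.4 in dcl1-9, a difference of 3.85 (SE 0.47, adjusted p = 3.4e-04). It was the single member called among 6 MIR395 genes. MIR172a and MIR172b, whose product represses APETALA2-like floral repressors, differed in intensity. MIR172b read 2.47, 5.25 and 3.97 in WT and 27.6, 44.1 and 46.0 in dcl1-9 (3.50, SE 0.33, adjusted p = 4.4e-05). MIR172a read 65.6, 34.1 and 63.6 in WT and 208, 256 and 208 in dcl1-9 (2.23, SE 0.21, adjusted p = 4.4e-05). No array of either gene overlapped between the genotypes. The sizes at these dim WT levels depended on the log transform: with log2(value + 16) the difference was 2.03 for MIR395e and 1.53 for MIR172b, both still called.

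Genes for the microRNAs of leaf polarity and of phase change were also among those that rose. MIR166a, whose product targets class III HD-ZIP factors of the upper leaf side, read 52.8, 37.3 and 69.9 in WT and 203, 289.6 and 290.5 in dcl1-9 (2.46, SE 0.23, adjusted p = 3.3e-05). MIR166b read 2.58, 2.38 and 3.87 in WT and 22.2, 14.9 and 20.0 in dcl1-9 (2.85, SE 0.32, adjusted p = 1.7e-04). MIR166b was dim in WT, and its difference ran from 0.96 to 3.08 over the alternatives, with its call kept in each. MIR157c, which belongs to the family that holds leaves in the juvenile phase, read 23.6, 18.15 and 18.3 in WT and 95.3, 106 and 112 in dcl1-9 (2.53, SE 0.23, adjusted p = 2.7e-05). In each of these 3 genes the lowest dcl1-9 array was well above the highest WT array.

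MIR159b, a regulator of GAMYB factors, had close WT replicates, with 59.2, 58.4 and 60.7 in WT and 189, 188 and 150.4 in dcl1-9 (1.69, SE 0.18, adjusted p = 8.4e-05). MIR161, which targets pentatricopeptide repeat (PPR) genes, read 16.4, 19.0 and 20.1 in WT and 87.1, 50.1 and 72.3 in dcl1-9 (2.02, SE 0.20, adjusted p = 6.3e-05). MIR168a, whose product targets AGO1, read 64.9, 66.6 and 67.9 in WT and 143, 129 and 175 in dcl1-9 (1.29, SE 0.18, adjusted p = 9.3e-04). All 3 genes therefore had separate genotypes and WT arrays close to each other. The copper-responsive MIR398 genes differed in their spread: MIR398b read 6.64, 9.57 and 16.2 in WT and 36.8, 52.7 and 75.6 in dcl1-9 (2.52, SE 0.34, adjusted p = 7.9e-04), and MIR398c read 196, 229 and 108 in WT and 489.6, 372 and 389 in dcl1-9 (1.43, SE 0.29, adjusted p = 0.0064).

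Of 103 MIR families, 30 had at least 1 gene that rose. Both measured MIR393 genes rose, as did 2 of 3 in each of the MIR159, MIR160, MIR171 and MIR398 families, 2 of 4 MIR157, 3 of 7 MIR166, 2 of 5 MIR172 and 1 of 8 MIR156 genes. None of 3 MIR319 and none of 6 MIR399 genes was called, and 2 of 14 MIR169 genes were, all 14 having a mean under 20. Members of a family share near-identical sequence, so a probe set may read more than 1 of them. Several bright MIR transcripts did not pass the test. MIR850 had means of 117 in WT and 242 in dcl1-9 (difference 1.2, adjusted p = 0.11), MIR167d 68.4 and 137 (1.05, adjusted p = 0.14), MIR853 229 and 218 (0.07), and MIR775 62.1 and 39.7 (-0.53, adjusted p = 0.21). The MIR gene that fell, MIR390b, read 21.1, 20.8 and 26.6 in WT and 9.63, 15.3 and 12.0 in dcl1-9 (-0.77, SE 0.23, adjusted p = 0.041). Its call was lost without WT replicate 1, WT replicate 3, dcl1-9 replicate 1 or dcl1-9 replicate 3, with adjusted p between 0.070 and 0.176.

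**Figure D1:**
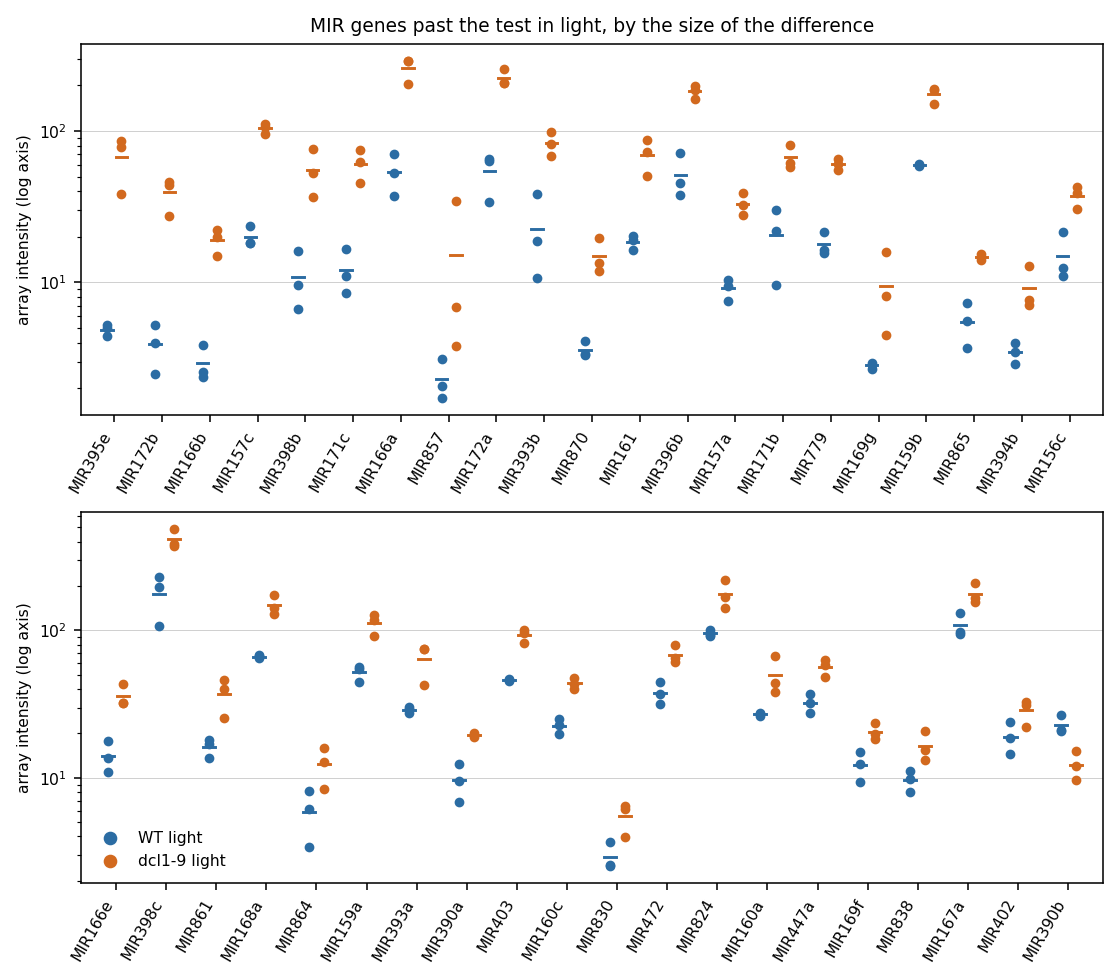
Intensity of the 41 called MIR genes on each light array, on a log axis in arbitrary units, ordered by the difference between the genotypes. Blue points are the 3 WT arrays, orange points the 3 dcl1-9 arrays and bars the group means. The orange points lie above the blue ones in the genes that rose, with overlap in 1 of the 40, and MIR390b is the gene that fell.

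Genes of the small RNA machinery were called higher in 16 of 40 cases and lower in none, with a median difference of 0.48, beside 9.95% higher of all probe sets and 14.7% of those with a mean of at least 20. Of these, 6 of 16 were biogenesis genes (DCL1, HYL1, HEN1, HESO1, ABH1 and CDC5), 3 of 10 were ARGONAUTE genes (AGO2, AGO4 and AGO10) and 7 of 14 belonged to other small RNA pathways (DCL3, DCL4, DRB3, DRB4, DRB5, RDR1 and NRPD1B). Over the whole list, the arrays did not overlap in 21 of 40 genes with a positive difference and in 3 with a negative one, against 13.3% and 19.3% of all probe sets. WT replicate 3 was the lowest WT array in 14 of the 16, and 7 of the 16 calls were kept whichever light array was left out, 5 of them under every alternative. Without WT replicate 3 the calls of ABH1, AGO4, DRB3, DRB4, HEN1, HESO1, HYL1, NRPD1B and RDR1 were lost, with adjusted p from 0.0525 for DRB3 to 0.140 for NRPD1B. Without dcl1-9 replicate 2 the biogenesis count was 2 and that of the other pathways 3.

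Of the other Dicers, DCL4 and DCL3 were called and DCL2, which acts in antiviral defence, was not (0.28, adjusted p = 0.41). DCL4, which makes trans-acting small interfering RNAs (tasiRNAs), read 102, 116 and 71.9 in WT and 193, 179 and 183 in dcl1-9 (1.11, SE 0.20, adjusted p = 0.0034). DCL3, the Dicer of RNA-directed DNA methylation, read 20.0, 19.2 and 11.9 in WT and 33.5, 47.3 and 38.3 in dcl1-9 (1.38, SE 0.23, adjusted p = 0.0027). HYL1, the partner of DCL1, read 126, 126 and 82.8 in WT and 185, 167 and 156 in dcl1-9 (0.76, SE 0.20, adjusted p = 0.025). The HYL1 call was lost without WT replicate 3 (adjusted p = 0.112), dcl1-9 replicate 1 (0.113) or dcl1-9 replicate 2 (0.069). The machinery genes that microRNAs themselves target did not move alike. AGO2, a target of miR403, read 29.0, 33.4 and 32.0 in WT and 44.8, 60.02 and 51.0 in dcl1-9 (0.85, SE 0.18, adjusted p = 0.0090), whereas AGO1, the target of miR168, read 149, 173 and 151 in WT and 163, 167 and 156 in dcl1-9 (0.18, SE 0.13, adjusted p = 0.43). SERRATE (SE) had means of 153 and 167 (0.27, adjusted p = 0.20).

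Genes listed as microRNA or tasiRNA targets were called in 48 of 136 cases, 45 higher (33.1%) and 3 lower (2.21%), beside 9.95% and 1.52% of all probe sets, and their median difference was 0.25. Over all 136, the arrays did not overlap in 50 with a positive difference and in 15 with a negative one, against 13.3% and 19.3% of all probe sets. WT replicate 3 was the lowest WT array in 26 of the 45, and 31 of the 48 calls were kept whichever light array was left out. The target families differed in how many of their members rose.

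NF-YA subunits, CCAAT-binding transcription factors under miR169, were the family with the largest median among those with over 3 members, 1.08, with 5 of 7 called higher. NF-YA3 read 30.6, 41.0 and 28.4 in WT and 147, 173 and 173 in dcl1-9 (2.46, SE 0.17, adjusted p = 4.5e-06). NF-YA5 read 26.5, 20.8 and 16.6 in WT and 105, 87.5 and 86.9 in dcl1-9 (2.28, SE 0.23, adjusted p = 7.8e-05). NF-YA8 and NF-YA2 rose by 1.11 and 1.08, and NF-YA10 by 0.98, a call lost without dcl1-9 replicate 1 (adjusted p = 0.066). NF-YA9 and NF-YA1 did not pass the test (0.48 and 0.12).

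SPL factors of the miR156 family promote the adult phase and flowering. Of 9 SPL genes with a miR156 site, 4 rose (median 0.75), and of 6 SPL genes without a site, 4 rose (median 0.92). SPL9 read 76.0, 44.7 and 60.9 in WT and 107, 119 and 129 in dcl1-9 (1.13, SE 0.19, adjusted p = 0.0022). SPL4 read 52.3, 30.8 and 55.2 in WT and 62.1, 137.5 and 150.3 in dcl1-9 (1.42, SE 0.33, adjusted p = 0.014), with the call lost without dcl1-9 replicate 2 (0.062) or replicate 3 (0.051). The largest SPL difference was at AT1G76580, which has no site. It read 50.3, 43.4 and 31.9 in WT and 202, 147 and 162 in dcl1-9 (2.17, SE 0.21, adjusted p = 4.8e-05). The copper regulator SPL7, also without a site, rose by 0.94, a call lost without WT replicate 3 (adjusted p = 0.0881) or dcl1-9 replicate 1 or 2 (0.0714 and 0.072). SPL3 and SPL5, small members of the family, had differences of 0.40 and 1.16 (adjusted p = 0.18 for SPL5) and did not pass the test.

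The APETALA2-like targets of miR172 moved in opposite directions. TOE2 read 132, 139 and 116 in WT and 345, 364 and 309 in dcl1-9 (1.54, SE 0.15, adjusted p = 4.4e-05). SCHNARCHZAPFEN (SNZ), a floral repressor of the same family, read 109, 67.0 and 118 in WT and 19.3, 19.1 and 24.8 in dcl1-9 (-2.05, SE 0.24, adjusted p = 2.0e-04). Both were separated on every array. The other 4 members, AP2, TOE1, TOE3 and SMZ, had differences of -0.25, -0.34, -0.42 and 0.16 and were not called.

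Auxin response factors rose under some microRNAs. All 3 measured miR167 targets were called higher. ARF6 read 248, 197 and 185 in WT and 463, 372 and 350.1 in dcl1-9 (1.05, SE 0.16, adjusted p = 0.0014). ARF8, with which it acts in flower maturation, read 88.8, 84.6 and 98.6 in WT and 149, 152 and 148 in dcl1-9 (0.87). IAR3, an auxin amidohydrolase, rose by 0.80, with overlapping arrays. Of the miR160 targets, ARF16 and ARF17 rose by 0.79 and 0.81 and ARF10 had a difference of -0.13. ARF2 and ARF4, targets of TAS3-derived tasiRNAs, rose by 0.75 and 0.74, and ARF3 had a difference of 0.20. Without WT replicate 3 the calls of ARF16, ARF17, ARF2, ARF4 and IAR3 were lost (adjusted p = 0.052, 0.0613, 0.0664, 0.0697 and 0.143). That of ARF17 was also lost without dcl1-9 replicate 1 or 2, that of ARF2 without dcl1-9 replicate 2, those of ARF4 and IAR3 without WT replicate 1 or dcl1-9 replicate 1, and that of IAR3 without dcl1-9 replicate 2, with adjusted p from 0.0513 to 0.166. No auxin receptor under miR393 passed the test, among them TIR1 (0.18, adjusted p = 0.47) and AFB1 (0.80, adjusted p = 0.054).

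Growth and polarity regulators gave few calls. Of 7 miR396 targets, 3 rose, led by the growth-regulating factor GRF2, which read 30.1, 23.0 and 20.4 in WT and 46.9, 92.0 and 93.4 in dcl1-9 (1.75, SE 0.26, adjusted p = 0.0013), and GRF4 (1.39). The 2 GRF genes without a site were not called. Of the 5 class III HD-ZIP targets of miR165 and miR166, HB-8 rose by 0.77, while PHB, PHV, CNA and REV had differences of 0.27, 0.31, 0.32 and 0.00. REV read 53.6, 54.2 and 47.9 in WT and 48.3, 47.7 and 45.1 in dcl1-9. On the same arrays MIR166a and MIR166b rose by 2.46 and 2.85, the latter from a dim WT level (0.96 to 3.08 over the alternatives). None of 5 miR319 targets was called, TCP4 among them (144.9, 145.6 and 152 in WT, 152, 131 and 118 in dcl1-9). Of 8 miR159 targets, 1 rose (MYB33, by 0.80, list median -0.07). So did 1 of 3 miR171 targets (the GRAS factor HAM2, by 1.00, list median 0.24). Of 6 miR164 targets, 1 rose (the boundary gene CUC1, by 0.80, list median 0.16). The shares of 12.5% for miR159 and 16.7% for miR164 were near the 14.7% of all probe sets with a mean of at least 20. The calls of HB-8 and CUC1 were lost without WT replicate 3 (adjusted p = 0.0981 and 0.056), dcl1-9 replicate 1 (0.115 and 0.101) or dcl1-9 replicate 2 (0.0696 and 0.0751), that of HB-8 also without WT replicate 1 (0.088) and that of CUC1 without WT replicate 2 (0.0931).

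PPR genes under miR161 or miR400, whose products act on organelle transcripts, rose in 6 of 14 cases with a median of 0.92. AT1G63150 read 29.3, 29.97 and 22.9 in WT and 98.6, 97.9 and 81.6 in dcl1-9 (1.9, SE 0.20, adjusted p = 9.8e-05). RPF2 read 8.22, 12.3 and 10.1 in WT and 24.1, 23.6 and 23.6 in dcl1-9 (1.38). In the whole PPR family, 28 of 263 probe sets rose and none fell, a share close to that of all probe sets. These paralogs are near-identical in places, so their probe sets may share signal.

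Nutrient targets rose in part. PHO2, the ubiquitin-conjugating enzyme under miR399 that restrains phosphate uptake, read 121, 161 and 89.0 in WT and 319.7, 257 and 249.5 in dcl1-9 (1.32, SE 0.19, adjusted p = 0.0012). The copper chaperone CCS, a miR398 target, read 82.3, 54.2 and 45.4 in WT and 139.5, 162 and 185 in dcl1-9 (1.59, SE 0.23, adjusted p = 0.0013). The superoxide dismutases CSD1 and CSD2, which CCS loads with copper, rose by 0.81 and 1.29, and the plantacyanin ARPN by 1.35. The laccases under miR397, miR408 or miR857 had no call (LAC12 -0.62, adjusted p = 0.056, and LAC2 -0.53). Of 4 miR395 targets, the sulfate transporter gene SULTR2;1 rose by 0.84, a call lost without dcl1-9 replicate 2 (adjusted p = 0.053). The ATP sulfurylase APS1 read 474, 538 and 551 in WT and 419, 364 and 364 in dcl1-9 (-0.31, SE 0.14, adjusted p = 0.18).

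Further targets included AGL16, a MADS-box factor of stomatal development under miR824, which read 166, 195 and 126 in WT and 343, 335 and 335 in dcl1-9 (1.22, SE 0.15, adjusted p = 3.8e-04). FAMT, a methyltransferase gene under miR163, varied within WT and read 91.8, 141 and 29.3 there and 302, 503 and 233 in dcl1-9 (2.32, SE 0.46, adjusted p = 0.0063). A further miR163 target, AT1G66690, was called lower (-0.81), a call lost without WT replicate 2 or 3 or dcl1-9 replicate 1 or 2 (adjusted p = 0.0842, 0.15, 0.0851 and 0.125). The leaf factor LCR under miR394 had a difference of 0.15. Of 17 targets of young microRNAs, 4 rose, among them the nucleotide-binding immune receptor genes AT1G12290 (1.01) and AT5G43740 (1.10). The AT5G43740 call was lost without WT replicate 3 (adjusted p = 0.0804) or dcl1-9 replicate 2 or 3 (0.0543 and 0.0584). Among 8 TAS transcripts, whose cleavage by a microRNA starts tasiRNA production, TAS1C rose by 0.76, a call lost without WT replicate 2 (adjusted p = 0.0689) or dcl1-9 replicate 1 (0.0777). TAS1A read 48.5, 38.9 and 56.6 in WT and 18.7, 20.5 and 25.4 in dcl1-9 (-1.01, SE 0.21, adjusted p = 0.0084), and its call was lost without WT replicate 3 (adjusted p = 0.050). TAS3 had a difference of -0.53 (adjusted p = 0.21).

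**Figure D2:**
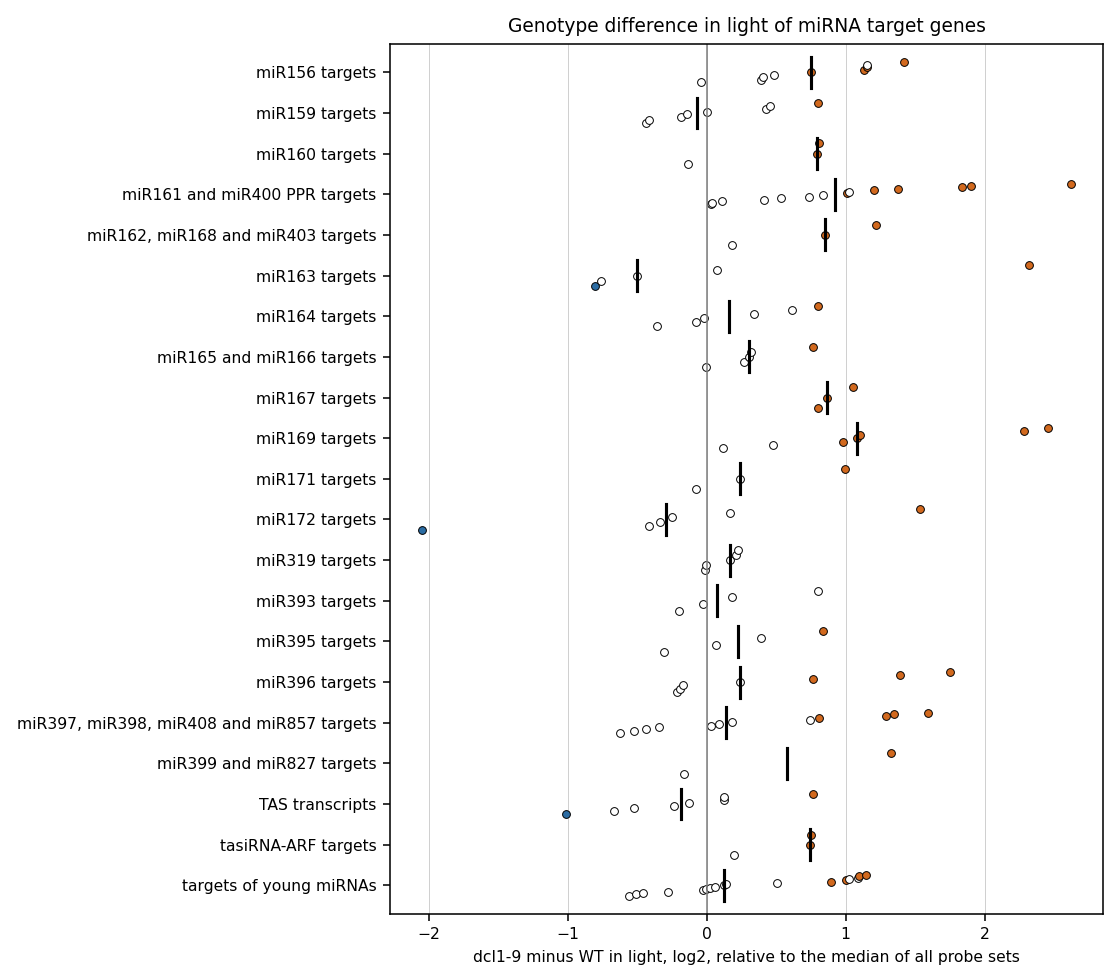
Difference between dcl1-9 and WT in the light for each listed target gene, in log2 units relative to the all-probe-set median, by microRNA family. Filled points passed the test (orange higher, blue lower), open points did not, and black bars are family medians, which lie at 1.08 for the 7 miR169 targets, -0.29 for the 6 miR172 targets and -0.50 for the 5 miR163 targets.

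Among the pathway lists the highest median was that of the genes of sulfur limitation. Of 25 genes, 16 were called higher and none lower, with a median difference of 1.17 beside 0 for all probe sets. Between 14 and 16 were called under every alternative, and 14 calls were kept whichever light array was left out. APS1, APS2 and SULTR1;1, uncalled in the main fit, were called lower in 1, 2 and 1 of the alternatives. Summed over the list, intensity was 2503 to 2659 in WT and 5342 to 7942 in dcl1-9. Within dcl1-9, replicate 1 was the highest array for 12 of the 16 genes and replicate 2 the lowest for 14.

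BGLU28, a beta-glucosidase that releases sulfur from glucosinolates, read 10.3, 14.2 and 13.0 in WT and 862, 472 and 567 in dcl1-9, a difference of 5.77 (SE 0.32, adjusted p = 9.5e-07). ATSDI1, a repressor of glucosinolate synthesis induced by low sulfur, read 11.5, 12.2 and 25.4 in WT and 502, 328 and 365 in dcl1-9 (4.81, SE 0.30, adjusted p = 2.5e-06). LSU1, a marker of sulfur limitation, read 6.45, 9.08 and 23.1 in WT and 219, 149 and 236 in dcl1-9 (4.3, SE 0.42, adjusted p = 4.8e-05). The genes rose from near the dim end of the scale to its upper range, and no dcl1-9 array approached a WT array.

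Enzymes and a transporter on the same list rose with them. The gamma-glutamyl cyclotransferase gene AT5G26220, whose product degrades glutathione, read 79.0, 48.4 and 86.2 in WT and 1243, 592 and 801 in dcl1-9 (3.74, SE 0.27, adjusted p = 6.6e-06). SHM7, a serine hydroxymethyltransferase, read 165, 129 and 155 in WT and 1292, 839 and 958 in dcl1-9 (2.91, SE 0.21, adjusted p = 6.0e-06). Uptake and reduction of sulfate were represented by SULTR1;2, the root-type high-affinity transporter, which read 36.2, 55.3 and 32.2 in WT and 283, 169 and 229 in dcl1-9 (2.61, SE 0.26, adjusted p = 6.3e-05). The 3 genes thus kept the same order of dcl1-9 arrays, replicate 1 highest and replicate 2 lowest.

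APR3, an adenosine phosphosulfate reductase, read 94.2, 46.7 and 81.1 in WT and 393, 264 and 303 in dcl1-9 (2.29, SE 0.26, adjusted p = 2.0e-04). APR1 and APR2 rose by 1.31 and 1.17, the latter with an adjusted p of 0.0503 without dcl1-9 replicate 1, and the vacuolar sulfate exporters SULTR4;2 and SULTR4;1 by 1.94 and 1.36. EIL3 (SLIM1), the transcription factor of the sulfur response, read 41.2, 49.6 and 33.3 in WT and 62.3, 70.9 and 72.2 in dcl1-9 (0.88). The ATP sulfurylase genes, which act between uptake and reduction, were not called: APS1, APS2, APS3 and APS4 had differences of -0.31, -0.43, 0.39 and 0.06. Sulfite reductase (SIR), which is itself a reduction step, was not called either (0.04). SULTR1;1, LSU3 and LSU4 had differences of -0.44, 0.40 and 0.01.

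Genes of aliphatic glucosinolate synthesis, which makes methionine-derived sulfur compounds, moved the other way. Of 15, 9 were called lower and none higher, with a median of -0.96, beside 1.52% lower of all probe sets. Over the whole list, 13 of 15 genes had a negative difference and every dcl1-9 array below every WT array, as did 19.3% of all probe sets. The list summed to 4380 to 6032 in WT and 2043 to 2686 in dcl1-9. The count was less stable than that of the sulfur genes, ranging from 4 without WT replicate 1 or dcl1-9 replicate 3 to 8 without dcl1-9 replicate 1, and 3 calls were kept throughout.

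BCAT4, the aminotransferase of the first step of methionine chain elongation, read 691, 738 and 643 in WT and 109.7, 108 and 77.6 in dcl1-9 (-2.69, SE 0.64, adjusted p = 0.015). Its groups lay far apart in the light, and its adjusted p was 0.052 without WT replicate 3 and 0.051 without dcl1-9 replicate 3. The SE came from a spread estimated over all 12 arrays, in which the dark WT arrays read 31.5, 174 and 24.7. MAM3 (IMS2), the synthase of the next step, read 108, 158 and 78.9 in WT and 38.8, 21.8 and 15.4 in dcl1-9 (-2.09, SE 0.45, adjusted p = 0.0091). The isopropylmalate isomerase genes IPMI2 and IPMI1, which follow it and were not on the list, were among the largest decreases. IPMI2 read 477, 603 and 457 in WT and 129, 76.0 and 76.6 in dcl1-9 (-2.35, SE 0.42, adjusted p = 0.0038), and IPMI1 read 702, 917 and 714 in WT and 223, 153 and 107 in dcl1-9 (-2.19, SE 0.45, adjusted p = 0.0072).

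Enzymes of core synthesis and side-chain modification also fell. CYP79F1, which converts the elongated amino acid to an aldoxime, read 55.2, 73.0 and 29.4 in WT and 21.6, 13.3 and 3.97 in dcl1-9 (-2.10, SE 0.50, adjusted p = 0.016), with an adjusted p of 0.0504 without WT replicate 1. FMO GS-OX1, an S-oxygenase, read 169, 202 and 123 in WT and 52.8, 39.1 and 34.1 in dcl1-9 (-1.83, SE 0.34, adjusted p = 0.0041). CYP79F2, SOT18 and SOT17 fell by 1.26, 0.96 and 0.77. The SOT18 call was lost without any light array but WT replicate 3 (adjusted p 0.0515 to 0.0698), and that of SOT17 without any but WT replicate 2 and dcl1-9 replicate 1 (0.0853 to 0.134). The regulators of the pathway were not called: MYB28 had means of 616 and 487 (-0.20, adjusted p = 0.69), and MYB29 read 352, 302 and 181 in WT and 155, 151 and 129 in dcl1-9 (-0.75, adjusted p = 0.31). MAM1 read 613, 850.2 and 509 in WT and 310.3, 305 and 234 in dcl1-9, without overlap, but did not pass the test (-1.06, SE 0.63, adjusted p = 0.32). None of 10 indolic glucosinolate genes was called, and their median was 0.14.

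**Figure D3:**
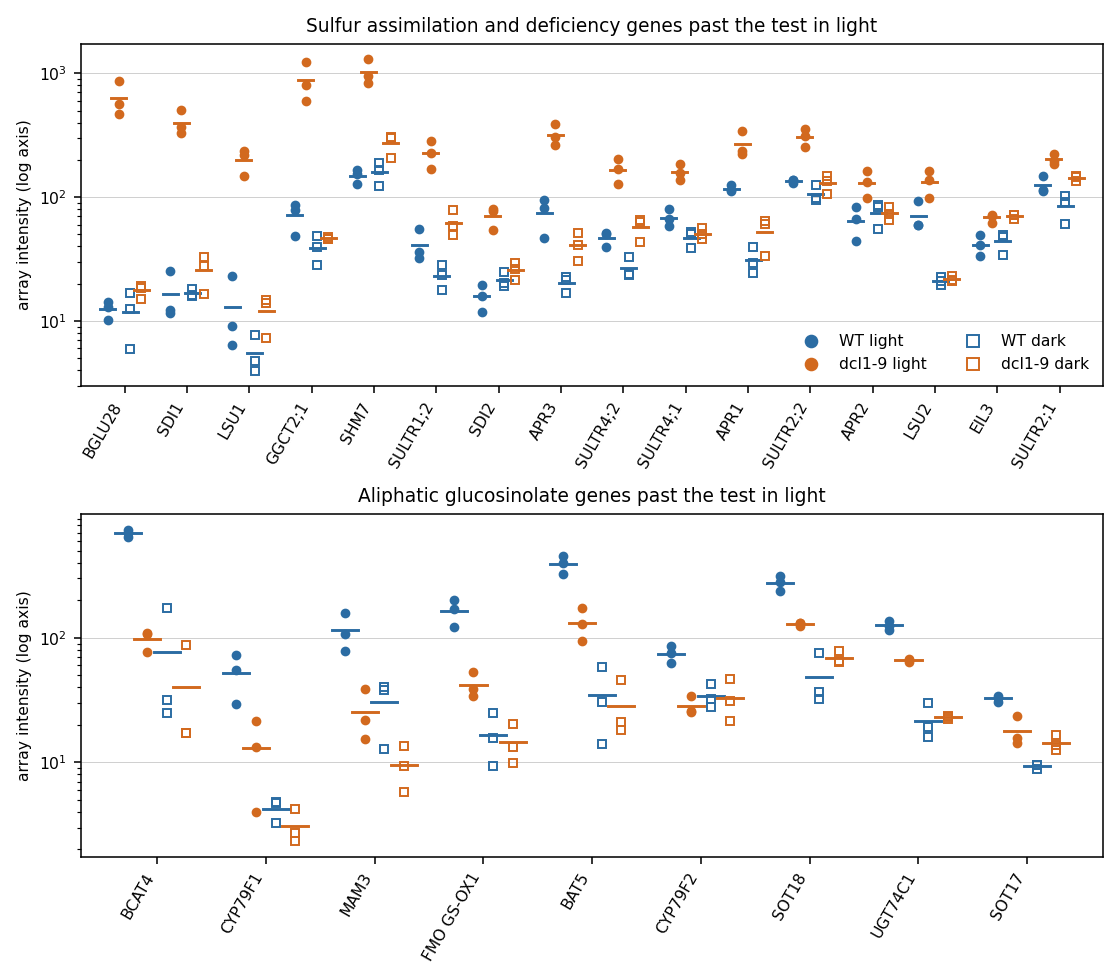
Intensity of the 16 sulfur genes that rose and of the 9 aliphatic glucosinolate genes that fell, on each array of the 4 groups, on a log axis in arbitrary units. Circles are light and squares dark arrays, blue is WT and orange dcl1-9, and bars are group means. In the light all 9 glucosinolate genes separate the genotypes, and BGLU28 spans 10.3 to 862.

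Defence genes followed. Of 26 jasmonate genes, 10 rose and none fell (median 0.72), beside 9.95% higher of all probe sets. VSP1, a vegetative storage protein induced by jasmonate, read 202, 106 and 71.9 in WT and 845, 1246 and 529.7 in dcl1-9 (2.97, SE 0.47, adjusted p = 0.0017). Allene oxide synthase (AOS), an early enzyme of jasmonate synthesis, read 641, 664 and 715 in WT and 1606, 1414 and 1085 in dcl1-9 (1.14, SE 0.18, adjusted p = 0.0017). JAZ1, a repressor of the pathway that jasmonate itself induces, read 169, 264 and 160.1 in WT and 537, 449 and 363 in dcl1-9 (1.34). All 3 separated the genotypes. AOC1, AOC3 and AOC2, which follow AOS and are near-identical to each other, rose by 1.67, 1.38 and 1.14, and LOX3 by 1.37. LOX2 read 1350.2, 1699 and 1129 in WT and 3296, 3322 and 2882 in dcl1-9, without overlap, and did not pass the test (1.34, SE 0.44, adjusted p = 0.065).

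Of 22 salicylate genes, 4 rose and none fell (median 0.71). That share was not far above the 14.7% of all probe sets with a mean of at least 20, whose median was 0.10. The immune regulators EDS1 (1.33), WRKY70 (1.32) and PBS3 (1.42) were among the 4 salicylate genes. Without WT replicate 2 the count was 10. That array stood apart for the marker PR1, which read 9.16, 162 and 11.0 in WT and 46.5, 58.3 and 15.4 in dcl1-9 and was not called. Among 147 NB-ARC genes, the intracellular immune receptors, 59 rose and 4 fell (median 0.61). Of the 95 with a mean of at least 20, 57 rose (median 0.98), beside 14.7% of all probe sets of that brightness. Of 244 receptor kinases, 46 (18.9%) rose and 2 fell, nearer the 14.7% of all bright probe sets. NB-ARC genes form clusters of similar copies, so the 59 are not 59 independent readings.

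Flavonoid genes showed the same WT array apart. Of 20, none rose and 1 fell, the repressor MYBL2 (-0.87, lost without WT replicate 1 or 2 or dcl1-9 replicate 1, adjusted p = 0.0592, 0.0528 and 0.0656), and 9 were called higher without WT replicate 2. The list summed to 912 to 4236 in WT and 1059 to 3103 in dcl1-9. DFR, a late enzyme of anthocyanin synthesis, read 38.3, 601 and 29.7 in WT and 257, 295 and 66.9 in dcl1-9.

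Metal, phosphate and timing genes gave smaller counts. The shares called higher were 35.7% of copper, 22.2% of phosphate and 35.3% of clock genes. Beside them stood 9.95% of all probe sets and 14.7% of those with a mean of at least 20. The phosphate share was near the 19.9% of probe sets with a mean between 50 and 100, where the median intensity of that list lay (50.4). Of 14 copper genes, 5 rose (CSD1, CSD2, CCS, SPL7 and YSL2) and COPT2, a copper importer, fell by 0.67. Without WT replicate 3 or without dcl1-9 replicate 1, 3 copper genes were higher and none lower, the calls of SPL7, YSL2 and COPT2 being lost (adjusted p = 0.0881, 0.0773 and 0.107 without the former). Of 14 iron genes, 2 (14.3%) rose, a share near the 14.7% of all bright probe sets: the root ferric reductase FRO2, 60 genes from DCL1, by 1.66, and BTS, a repressor of iron uptake, which read 834, 616 and 432 in WT and 1467, 1416 and 1204 in dcl1-9 (1.3). Of 18 phosphate genes, 4 rose (the ribonuclease RNS1 by 1.44, SPX1 by 1.35, PHO2, and the regulator PHR1 by 0.60, a call lost without WT replicate 3 or dcl1-9 replicate 1 or 2, with adjusted p = 0.0925, 0.0971 and 0.076). Of 17 clock genes, 6 rose and CHE (AT5G08330, listed as TCP11) fell (-0.71), a call lost without any light array but WT replicate 2 (adjusted p 0.0534 to 0.151). PRR7, a morning-phase repressor, read 99.2, 100.0 and 68.8 in WT and 170.0, 195 and 178 in dcl1-9 (1.18), and LNK1 (AT5G64170) and ELF3 rose by 1.08 and 1.00, the former lost without WT replicate 3 (adjusted p = 0.0792) or dcl1-9 replicate 2 (0.0684). The dcl1-9 replicate 2 was the highest dcl1-9 array for all 6, and 3 clock genes were called higher without it or without WT replicate 3.

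Photosynthesis genes were nearly without calls: none of 26 photosystem genes (median -0.12) and 1 of 16 Calvin cycle genes, TKL1 (AT3G60750, 0.48), passed the test. The TKL1 call was lost without WT replicate 1 or 3 or dcl1-9 replicate 1 or 2 (adjusted p = 0.0806, 0.0624, 0.0712 and 0.0842). RBCS1A, a subunit of Rubisco, read 3837, 3198 and 3218 in WT and 3385, 3590.3 and 3529 in dcl1-9. Of 15 dark-inducible genes, SEN5 (AT3G15450) was called (0.73), with overlapping arrays, and its call was lost without any light array but WT replicate 3 (adjusted p 0.0554 to 0.191). Of 17 flowering genes, 2 (11.8%) rose, near the 9.95% of all probe sets. They were the floral repressors FLC and MAF2 (AGL31), by 0.87 and 0.84. The FLC call was lost without any of the 6 arrays (adjusted p 0.0587 to 0.165) and that of AGL31 without any but WT replicate 3. Of 14 cell cycle genes, 2 (14.3%) rose, near the 14.7% of all probe sets with a mean of at least 20. They were the replication helicase genes MCM3 and MCM6, by 1.12 and 1.01. Their calls were lost without WT replicate 3 (adjusted p = 0.0811 and 0.169) or dcl1-9 replicate 2 (0.108 and 0.164). That of MCM3 was also lost without WT replicate 1 (0.0596) and that of MCM6 without WT replicate 2 (0.079). Of 9 leaf polarity genes, FIL (AFO), a YABBY factor of the lower leaf side, read 101, 92.1 and 99.1 in WT and 42.8, 43.5 and 53.2 in dcl1-9 (-0.94). None of 9 heat shock genes was called. Among large families, 14 of 586 F-box genes (2.39%) were higher and 4 lower, 5 (5.05%) and 4 of 99 ribosomal protein genes, 2 (2.56%) and 2 of 78 SAUR genes, and 1 and 1 of 50 histone genes, beside 9.95% higher of all probe sets. Of the F-box probe sets, 418 had a mean under 20.

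**Figure D4:**
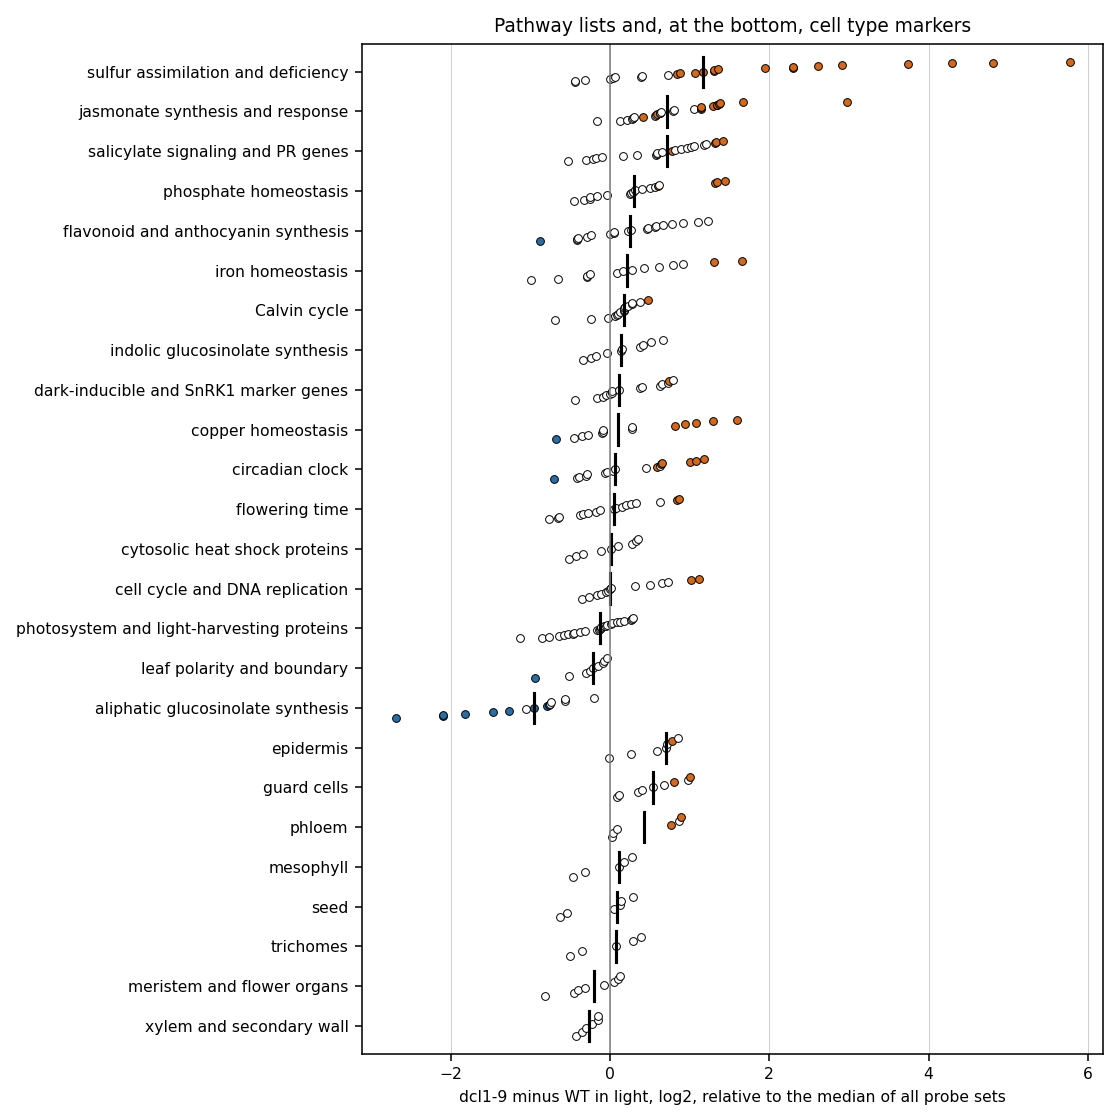
Difference between dcl1-9 and WT in the light for each gene of the pathway lists, in log2 units relative to the all-probe-set median, ordered by list median, with cell type markers at the bottom. Filled points passed the test (orange higher, blue lower), open points did not, and black bars are medians, from 1.17 for sulfur to -0.96 for aliphatic glucosinolate genes.

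Markers of leaf cell types were read on the same arrays. The shares called higher were 22.2% of guard cell, 14.3% of epidermal and 33.3% of phloem markers. Beside them stood 9.95% of all probe sets and 14.7% of those with a mean of at least 20, so the epidermal share was near that of bright probe sets. All 5 mesophyll markers were high in both genotypes and uncalled, with sums of 6446 to 8085 in WT and 6467 to 7963 in dcl1-9. Guard cell markers rose in 2 of 9 cases (MYB60, lost without dcl1-9 replicate 1 with adjusted p = 0.0534, and SLAC1, or OZS1, lost without WT replicate 2 or 3 or dcl1-9 replicate 2 with 0.0644, 0.0691 and 0.0714) and summed to 309 to 449 in WT and 514 to 701 in dcl1-9. Epidermal markers rose in 1 of 7 cases (KCS10, a wax enzyme, 0.78), with sums of 985 to 1757 and 1874 to 2529. Phloem markers rose in 2 of 6 cases (SWEET12, lost without WT replicate 2 or 3 or dcl1-9 replicate 2 with adjusted p = 0.056, 0.0525 and 0.0682, and AHA3, or HA3, lost without WT replicate 3 or dcl1-9 replicate 2 with 0.0605 and 0.0532), with sums of 2018 to 2279 and 1896 to 2714. None of the 6 xylem, 8 meristem or flower, 5 trichome and 6 seed markers was called. Their sums were 143 to 153 in WT and 103 to 125 in dcl1-9 for xylem, 137 to 158 and 90.2 to 113 for meristem or flower, 163 to 201 and 139 to 157 for trichomes, and 93.3 to 128 and 82.4 to 101 for seed. The part of guard cell and epidermal content in the differences above was not tested.

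Outside the lists, the largest increases were in genes of varied function. PYD4, an aminotransferase, read 15.1, 25.5 and 14.7 in WT and 436, 287 and 339.8 in dcl1-9 (4.43, SE 0.35, adjusted p = 1.3e-05). LTL1, a lipase linked to salt tolerance, read 37.2, 6.11 and 23.4 in WT and 392, 248 and 317 in dcl1-9 (4.31, SE 0.47, adjusted p = 1.3e-04). FRO1, a ferric reductase 61 genes from DCL1, read 21.9, 10.2 and 11.5 in WT and 151, 191 and 201 in dcl1-9 (3.85, SE 0.34, adjusted p = 2.4e-05). All 3 rose from low levels with no overlap. NATA1, an acetyltransferase that acts on ornithine in jasmonate-treated leaves, read 22.2, 91.8 and 25.2 in WT and 329, 359 and 295 in dcl1-9 (3.27, SE 0.45, adjusted p = 8.3e-04). The largest decrease was at AT5G05960, a member of the lipid transfer protein family, which read 63.9, 51.7 and 85.0 in WT and 7.07, 9.08 and 6.90 in dcl1-9 (-2.96, SE 0.23, adjusted p = 1.1e-05). AT4G04223, a transcript annotated as other RNA, read 675, 1136 and 939 in WT and 165, 148 and 136 in dcl1-9 (-2.45, SE 0.17, adjusted p = 5.9e-06). XTH31, a cell wall xyloglucan enzyme, read 457, 295 and 586 in WT and 91.3, 41.4 and 95.3 in dcl1-9 (-2.45), and the glycine-rich protein gene GRP20 41.1, 33.2 and 47.6 in WT and 7.02, 6.82 and 6.12 in dcl1-9 (-2.46).

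The same genotypes in the dark shared no array with the light comparison, but the variance was estimated over all 12 arrays. Same-numbered light and dark arrays also correlated in their deviations from the group means, at 0.0388 to 0.24 in WT and 0.237 to 0.305 in dcl1-9. The light and dark comparisons were therefore not fully separate. In the dark 2249 probe sets (8.08%) were called higher and 536 (1.93%) lower. Of the 2770 higher in the light, 1476 (53.3%) were also called higher in the dark, which is 65.6% of the dark calls. Of the 424 lower in the light, 107 (25.2%) were also called lower in the dark, 20.0% of the dark calls, and 7 probe sets were called in opposite directions. The differences correlated at 0.646 across probe sets, which are not independent replicates.

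In the dark 35 MIR genes were higher and 1 lower, and 42 targets were higher and 4 lower. All 40 MIR genes that rose in the light had a positive difference in the dark, 29 of them called there, and none had a called interaction between genotype and treatment. MIR166a rose by 2.46 in the light and by 2.34 in the dark, and MIR171c by 2.50 and 3.03. MIR395e differed by 0.93 in the dark (adjusted p = 0.24), with 3.00, 6.01 and 3.46 in WT and 16.1, 6.26 and 3.31 in dcl1-9, but its interaction did not pass the test (2.91, SE 0.66, adjusted p = 0.16). All 45 targets that rose in the light had a positive difference in the dark, 32 of them called there, again with no called interaction, and none of the 3 that fell in the light was called in the dark. A further 10 targets were called higher in the dark alone. Of the 5 miR319 targets, 3 were called in the dark and none in the light, with medians of 0.56 and 0.17, and of the 9 miR156 targets 1 and 4 were. A missing interaction call does not show that the differences were equal.

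The sulfur genes differed between light and dark. In the dark 8 of 25 were called higher, 7 of them among the 16 called in the light, and 5 had a called interaction (BGLU28, ATSDI1, AT1G04770, AT5G26220 and SHM7). BGLU28 read 16.9, 5.93 and 12.5 in dark WT and 18.6, 19.3 and 15.2 in dark dcl1-9, a difference of 0.83 (adjusted p = 0.12) against 5.77 in the light. ATSDI1 read 18.0, 15.9 and 16.2 in dark WT and 27.6, 32.7 and 16.5 in dark dcl1-9 (0.68, adjusted p = 0.18) against 4.81 in the light. SULTR1;2 was called in both, by 2.61 in the light and 1.55 in the dark, and its interaction was not called (1.05, SE 0.37, adjusted p = 0.60). For the aliphatic glucosinolate genes the dark gave 1 call higher and none lower. Their interactions were not called, with BCAT4 at -2.03 (SE 0.91, adjusted p = 0.84), so a difference between the treatments was not shown for them. Dark WT arrays of BCAT4 ranged from 24.7 to 174, below the WT light arrays.

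Over all probe sets the interaction was called in 29, with 25 (0.0898%) more positive in the light and 4 (0.0144%) more negative, and 1598 had an unadjusted p under 0.05. In 17 of the 29 the difference was positive in the light and larger in size there than in the dark.

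**Figure D5:**
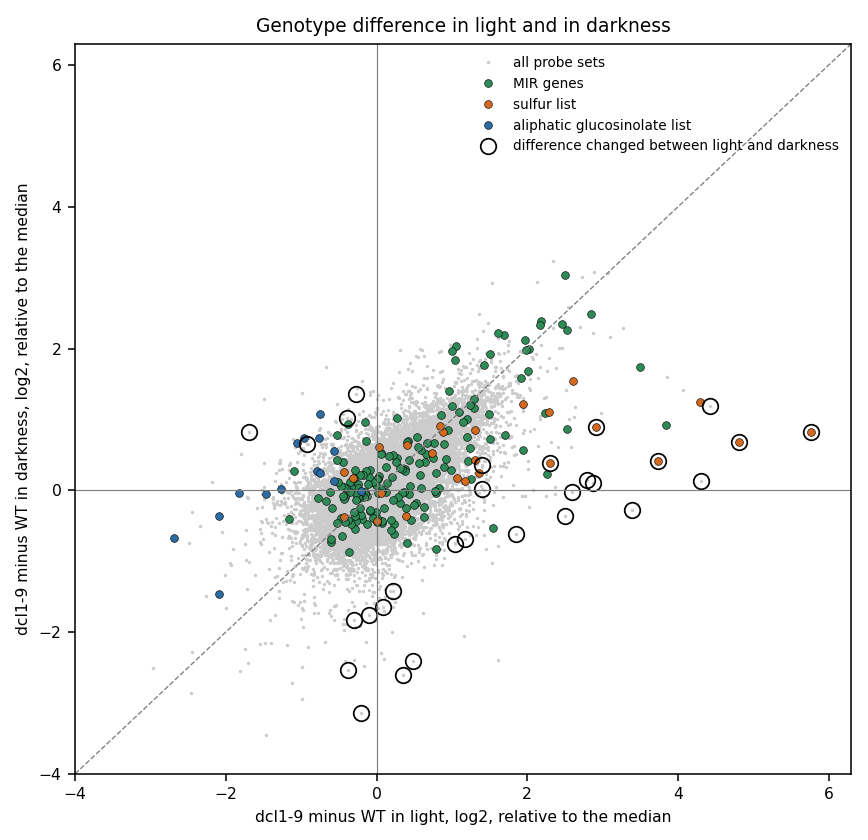
Difference between dcl1-9 and WT in the light (horizontal) and in the dark (vertical) for each probe set, in log2 units relative to the all-probe-set median of each comparison. Grey points are all probe sets, green MIR, orange sulfur and blue aliphatic glucosinolate genes, black rings mark the 29 called interactions and the dashed line marks equal differences. BGLU28 lies at 5.77 in the light and 0.83 in the dark.

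The dcl1-9 allele came from Wassilewskija, and sequence of that accession linked to DCL1 on chromosome 1 can remain after backcrossing. Of the 1472 probe sets within 5 Mb of DCL1 (RefSeq gene starts), 11.8% were called higher and 1.49% lower, against 9.85% and 1.53% elsewhere. Among the 316 nearest, within 1 Mb, 13.0% were higher and 2.22% lower. FRO1, FRO2 and PIP1C (-1.93), an aquaporin, lie in this stretch. Leaving out all probe sets within 5 Mb gave 2997 calls in the light. For these neighbours, a difference in expression and a difference in probe binding cannot be told apart.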

How the data were processed

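RNA of 3 biological replicates per group was hybridised to Arabidopsis Gene 1.1 ST Array Strips. Scans were read with Affymetrix Expression Console (version not given in the sources used here). The authors normalized the arrays in dChip to a baseline array by an invariant set of probes, summarised perfect-match probes with a probe grouping that gives 1 probe set per gene, and deposited linear intensity values. The number of arrays limits the precision. RefSeq listed 27241 of the 27827 probe set loci, which gave symbols and gene starts (TAIR10.1), and 586 kept the deposited name.

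Values under 1 were set to 1 and log2 intensity, computed from the deposited values, was fitted in limma 3.58.1 (R 4.3.3) with 4 groups over all 12 arrays (8 residual degrees of freedom) and a trend of the variance with intensity. Each contrast was tested against its median difference over all probe sets, and p was adjusted over 27827 probe sets by Benjamini-Hochberg at 0.05. The script was tested on simulated data. Lists are given as counts and medians, without a set test. MIR genes are those of RefSeq biotype miRNA. The other lists cover the small RNA machinery, microRNA and tasiRNA targets, the pathways and gene families given in the report, and cell type markers.

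Alternatives were a test against 0, array medians, quantile normalization, log2(value + 16), dim probe sets left out, no variance trend, the 6 light arrays alone, the replicate number as a block, a test against 1.2-fold, a lower-bound fold criterion of the study's type, genes near DCL1 left out, each array left out, and cyclic loess (chosen after seeing the data). Named genes were the machinery and target lists, the 12 largest non-overlapping increases and decreases with a group mean of at least 40, up to 10 MIR genes in each direction, up to 6 called and 3 uncalled members of each pathway list, the 6 largest interactions, and genes the study names from its arrays. Other genes named were chosen after their values were seen. The members and lists were chosen with earlier results of these data known. No genome sequence was used.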

Additional observations from a re-analysis of the deposited data

Results flagged for a closer look

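The difference between dcl1-9 and WT changed between light and dark in 29 genes by limma's interaction test, and each value here is the log2 difference in the light minus that in the dark. In 17 genes the difference was positive in the light and larger in size there than in the dark. They were BGLU28 (4.93, SE 0.46, adjusted p = 4.0e-04), LTL1 (4.16), ATSDI1 (4.12), NUDT24 (3.66), AT5G26220 (3.31), PYD4 (3.23), AT1G73325 (2.86), CSLG3 (2.76), AT1G75280 (2.64), AT1G12030 (2.61), SHM7 (2.00), AT1G04770 (1.9), AAP1 (1.36), ST2A (1.04), NSP5 (2.45), SFP1 (1.85) and SIP1;2 (1.79). AAP1, an amino acid permease, had a difference of 1.39 in the light and 0.02 in the dark.

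In 8 genes the larger difference was that in the dark, where dcl1-9 was lower. AT2G25770 (2.92, SE 0.27, adjusted p = 4.0e-04) had a difference of -3.14 in the dark and -0.21 in the light. GDPD2, a glycerophosphodiester phosphodiesterase, had an interaction of 2.88 with -2.41 in the dark and 0.48 in the light, and GLYI4, a glyoxalase, one of 2.95 with -2.61 and 0.35. The others were AT5G60260 (2.14), CKX5 (1.71), AT4G28085 (1.64), PP2-A14 (1.63) and HSFA7A (1.52). The 4 genes whose difference was more negative in the light were AT4G25433 (-2.54), AT5G21100 (-1.65), AT1G21440 (-1.58) and AT4G30660 (-1.43). The adjusted p over the 29 genes ranged from 4.0e-04 to 0.048.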

How the results depend on the processing

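No called named gene changed sign under the alternatives run. Leaving out single arrays gave 1394 to 3481 calls in the light, 34 to 39 called MIR genes, 35 to 46 called targets, 49 to 83 called members of the pathway lists, 93 to 197 calls within 5 Mb of DCL1, 647 to 2664 calls in the dark and 8 to 39 called interactions. A test against 1.2-fold left 1053 calls in the light, 29 targets, 39 pathway list members and 70 calls within 5 Mb of DCL1. The 6 light arrays alone gave 130 calls within 5 Mb of DCL1. Without the dim probe sets 26 MIR genes were called, since fewer were tested. Same-numbered light arrays correlated at 0.0739, 0.162 and 0.315 in their deviations from the group means. Over all 6 pairs of groups the same-number correlation ran from 0.0309 to 0.337. It was over 0.1 for every number in 2 pairs, and by that limit the numbers were not taken to pair the samples. The lowest same-number value was under the highest different-number value between the genotypes in light (0.0739 and 0.12) and in darkness (0.048 and 0.0617). In every other pair of groups it was above, as between light and dark dcl1-9 (0.237 and -0.0959). The main fit does not model an effect shared by same-numbered arrays. With the replicate block, 4999 probe sets were called in the light (4097 higher and 902 lower), 4598 in the dark and 77 interactions, which then included MIR157c, LSU1 and SOT18 but no target. Of 199 called named genes, 134 were kept without each light array and 123 under every alternative, and 69 were lost against 1.2-fold and 51 without WT replicate 3. The cause of these changes was not tested. With 3 arrays a group, calls near the threshold changed with single arrays, and 9335 to 11442 probe sets read under 20 on a light array.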
